A study of Mus musculus with 12 samples.

Results

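The acyl-CoA thioesterases encoded by the Acot genes were followed through the ventral hippocampus of stressed and unstressed mice. The 10 members are the rows of the count table whose gene symbol is Acot1, Acot2, Acot4, Acot7, Acot8, Acot9, Acot10, Acot11, Acot12 or Acot13, out of 54532 genes in all. The rule uses gene symbols and no measured value. Acot3, Acot5 and Acot6 are not members and appear only as neighbours. Of the 10, 9 had enough counts to be tested, and Acot10 did not.

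Total RNA of ventral hippocampus was sequenced in 12 libraries, 3 in each of 4 groups. The groups were CSDS mice, SSDS-shACOT12 mice (ACOT12 knocked down in the liver, followed through SSDS), SSDS-GFP mice (the virus AAV8-eGFP, also with SSDS) and Control mice. The labels call every mouse WT, give CSDS and SSDS only as abbreviations (in this field, usually chronic and subthreshold social defeat stress), and give no strain, age or sex. The names of the SSDS columns carry TBG, the name of a promoter active in liver cells, and both SSDS groups share the SSDS exposure. Whether each replicate is its own animal is not stated, and p-values therefore measure only the spread between these libraries.

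Acyl-CoA thioesterases split the thioester bond that joins a fatty acid, or a shorter acid such as acetate or succinate, to coenzyme A. They release the free acid and coenzyme A, and so work against the acyl-CoA synthetases. The family holds unrelated protein folds. Acot1 to Acot6 are alpha/beta hydrolases encoded side by side, and Acot7 to Acot13 have the hotdog fold. In brain the best known member is Acot7, also called brain acyl-CoA hydrolase, a cytosolic enzyme for long-chain acyl-CoA that is abundant in neurons. Acot12, which hydrolyses acetyl-CoA in the cytosol, is known mainly from liver.

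Totals per library ran from 14656714 counts (SSDS-GFP 1) to 17694570 counts (CSDS 2). Genes of neurons, glia and endothelium were all detected (10 of 10 tested in each list), and 10 of 10 ventral hippocampus markers were tested. Along the first principal component of log2 expression (31.3% of the variance) 3 libraries stood off, with scores of 63.1 (SSDS-shACOT12 3), 37.4 (SSDS-shACOT12 1) and 35.7 (SSDS-GFP 3), while no other library exceeded 5.82. The share of counts from mitochondrial DNA was lowest in SSDS-shACOT12 1 (3.23%) and SSDS-shACOT12 3 (4.31%), and 6.31% to 9.24% elsewhere.

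The sequences before the starts of Acot7, Acot4 and Acot12 are shown because Acot7 and Acot4 are the members that set Control apart from every other library, and Acot12 is the gene targeted in liver. They come from RefSeq (GRCm38.p6) and cover the 250 bases before the annotated start on the plus strand. Acot7 is at chr4:152185358-152185607, a RefSeq start that lies inside the longer Ensembl gene model. Acot4 is at chr12:84038129-84038378 and Acot12 at chr13:91741271-91741520. Of the Acot12 stretch, 99 bases lie in an exon of the antisense gene 4833422C13Rik. Capitals mark the GC box GGGCGG, the CCAAT box CCAAT, the TATA box TATAAA and the E-box CACGTG on either strand.
Acot7: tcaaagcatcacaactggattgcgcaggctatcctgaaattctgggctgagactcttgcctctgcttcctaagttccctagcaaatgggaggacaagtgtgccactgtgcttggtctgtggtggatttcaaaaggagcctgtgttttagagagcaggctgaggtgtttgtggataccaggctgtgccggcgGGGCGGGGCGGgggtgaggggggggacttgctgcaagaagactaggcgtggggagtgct
Acot4: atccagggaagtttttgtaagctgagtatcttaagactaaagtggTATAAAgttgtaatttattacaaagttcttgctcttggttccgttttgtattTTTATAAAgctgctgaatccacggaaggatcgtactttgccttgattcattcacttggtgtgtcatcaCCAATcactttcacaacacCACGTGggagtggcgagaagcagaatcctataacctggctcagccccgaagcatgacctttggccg
Acot12: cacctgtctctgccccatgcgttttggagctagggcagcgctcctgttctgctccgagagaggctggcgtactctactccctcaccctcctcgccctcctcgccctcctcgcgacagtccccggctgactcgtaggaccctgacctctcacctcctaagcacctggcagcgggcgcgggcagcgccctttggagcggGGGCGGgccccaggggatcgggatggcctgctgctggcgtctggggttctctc

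Acot7 had 2 GC boxes, at -59 and -54 from the start, which overlap by their shared G, and Acot12 had 1, at -53. Acot4 had 1 CCAAT box at -85, 1 E-box at -66 and 3 TATA boxes, at -205, -153 and -151, of which the last pair overlap on opposite strands. In windows of 300 bases (250 before and 50 after the start), the GC box was present in 35.7% of 32851 RefSeq promoters, the CCAAT box in 37.4%, the TATA box in 13.6% and the E-box in 7.15%. A match is a description of the letters only.

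Levels of different genes are given as the deposited FPKM, which are scaled by gene length. Acot7 and Acot13 stood far above the rest of the family in every library. Acot7 averaged 137 FPKM over the 12 libraries, above 98.2% of all tested genes, and Acot13, a long-chain thioesterase that associates with mitochondria and binds the phosphatidylcholine transfer protein, averaged 126 FPKM, above 98.0%. Acot7 was higher than Acot13 in 9 of 12 libraries, with overlapping ranges, so these neighbours did not differ beyond their spread. Acot13 was above the next member, Acot9, in 12 of 12 libraries, with a median ratio of 17.8.

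A middle group of 5 genes followed, with means of 7.45 FPKM for Acot9 (mitochondrial), 6.12 for Acot8 (peroxisomal), 4.88 for Acot2 (mitochondrial matrix), 4.42 for Acot11 (a START-domain enzyme known from brown fat) and 3.74 for Acot1 (cytosolic). The ranges of each neighbouring pair within this group overlapped. Within libraries, Acot9 was above Acot8 in 12 of 12, Acot8 above Acot2 in 9, Acot2 above Acot11 in 7 and Acot11 above Acot1 in 11. Acot4, which in mouse is a peroxisomal succinyl-CoA thioesterase, averaged 0.688 FPKM and lay below Acot1 in 12 of 12 libraries without overlap. Acot12 averaged 0.150 FPKM and lay below Acot4 in 12 of 12 libraries. Acot10, an intronless copy of Acot9, averaged 0.0415 FPKM and was below Acot12 in 11 of 12 libraries, with overlapping ranges.

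**Figure D1:**
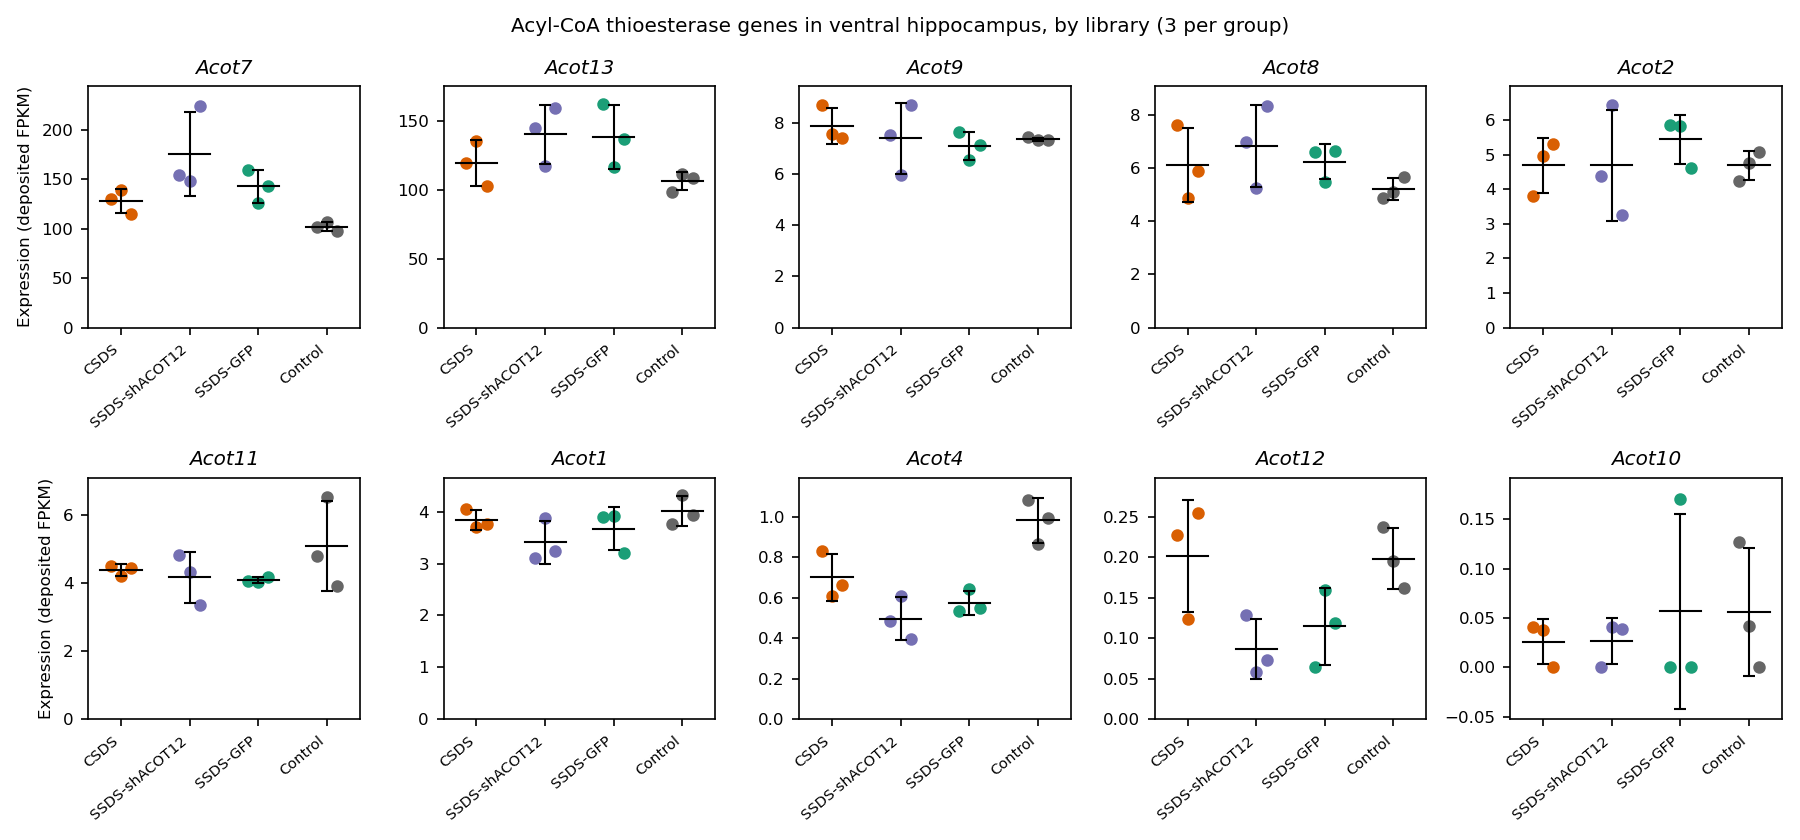
Deposited FPKM of the 10 thioesterase genes in each library (y axis, from 0 except for Acot10, whose error bars pass below 0) for the groups CSDS, SSDS-shACOT12, SSDS-GFP and Control (x axis). Points are libraries, lines are means and bars are SD (n = 3). The 9 libraries outside Control lie above Control for Acot7 and below Control for Acot4.

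Acot7 (ENSMUSG00000028937, mm10 chromosome 4, 152178134 to 152271855, plus strand) was at 129.5, 139 and 115 FPKM in CSDS, at 154, 148 and 224 FPKM in SSDS-shACOT12, at 159, 126 and 143 FPKM in SSDS-GFP and at 102, 106 and 97.5 FPKM in Control. Every one of the 9 other libraries lay above every Control library, and SSDS-shACOT12 3 was the highest of all. Of all tested genes, 3.5% had all 9 other libraries above Control, and Acot7 was the only member to do so. The group means were 128 ± 12.1 FPKM in CSDS, 175 ± 42.1 in SSDS-shACOT12, 143 ± 16.3 in SSDS-GFP and 102 ± 4.37 in Control (SD, n = 3 each). Behind these values stand 3326 to 7892 counts per library, and the transcripts of Acot7 share no run of 50 bases with another gene. In bulk tissue, more cells of a type and more RNA per cell cannot be told apart.

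Acot4 (ENSMUSG00000052392, mm10 chromosome 12, 84038379 to 84048601, plus strand) was lower outside Control. It was at 0.830, 0.609 and 0.663 FPKM in CSDS, at 0.482, 0.609 and 0.397 FPKM in SSDS-shACOT12, at 0.534, 0.640 and 0.546 FPKM in SSDS-GFP and at 1.08, 0.864 and 0.995 FPKM in Control. All 9 other libraries lay below all 3 Control libraries, as they did for 2.5% of tested genes and for no other member. CSDS 1 came closest to Control. The counts were small, 44 to 112 per library. In addition, 615 of the 6674 exon bases of Acot4 overlap the antisense gene 4732463B04Rik, whose reads cannot be told apart without strand. That gene had 2 to 21 counts per library.

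Acot13 (ENSMUSG00000006717, mm10 chromosome 13, 24817948 to 24831540, minus strand) was at 119.8, 136 and 103 FPKM in CSDS, at 145, 117 and 159 FPKM in SSDS-shACOT12, at 162, 116 and 137 FPKM in SSDS-GFP and at 98.8, 111 and 109 FPKM in Control. All 6 SSDS libraries lay above Control, while CSDS overlapped it. In CPM, 14% of all genes lay above Control without overlap in SSDS-shACOT12 and 12.5% in SSDS-GFP. The share of genes with both splits at once was not computed. Like Acot7, it shared no run of 50 bases with another gene.

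Acot12 (ENSMUSG00000021620, mm10 chromosome 13, 91741512 to 91786148, plus strand) was near the limit of detection. It had 12, 7 and 14 counts in CSDS, 7, 3 and 4 in SSDS-shACOT12, 3, 8 and 7 in SSDS-GFP and 12, 10 and 9 in Control. The counts of both SSDS groups lay below those of Control, and the counts of SSDS-shACOT12 and SSDS-GFP overlapped. In CPM, 11.6% of all genes lay below Control without overlap in SSDS-shACOT12 and 11.4% in SSDS-GFP. Of the 12 hepatocyte markers, 2 were tested, and Apob, Serpina1a, Ahsg, Fga and Fgb stayed under 0.1 FPKM in every library. Alb had 3 to 17 counts in SSDS-shACOT12, 0 to 4 in SSDS-GFP, 0 to 1 in CSDS and 0 to 2 in Control. The summed FPKM of the hepatocyte list was 1.87 to 5.01 in CSDS, 5.26 to 7.88 in SSDS-shACOT12, 6.51 to 15.03 in SSDS-GFP and 7.44 to 407 in Control, where it consisted mostly of Ttr, a gene that choroid plexus also expresses. Since the knockdown was hepatic, the level of Acot12 in hippocampus is no check of it.

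The remaining members varied without a split between Control and the rest. Acot9 (chromosome X) was at 8.70, 7.58 and 7.42 FPKM in CSDS, at 7.56, 5.95 and 8.70 in SSDS-shACOT12, at 7.64, 6.56 and 7.13 in SSDS-GFP and at 7.45, 7.36 and 7.33 in Control. Acot8 (chromosome 2) was at 7.63, 4.88 and 5.90 FPKM in CSDS, at 6.99, 5.25 and 8.33 in SSDS-shACOT12, at 6.60, 5.49 and 6.66 in SSDS-GFP and at 4.89, 5.10 and 5.67 in Control. For both genes every group overlapped Control. Acot11 (chromosome 4) was at 4.50, 4.19 and 4.44 FPKM in CSDS, at 4.82, 4.30 and 3.35 in SSDS-shACOT12, at 4.05, 4.01 and 4.17 in SSDS-GFP and at 4.79, 6.53 and 3.92 in Control. Its highest value was in Control 2, and the other Control libraries overlapped all groups.

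Acot1 and Acot2 are near copies, with 95.6% identity over the aligned coding bases, and lie next to each other on chromosome 12. Acot1 was at 4.06, 3.70 and 3.77 FPKM in CSDS, at 3.11, 3.89 and 3.25 in SSDS-shACOT12, at 3.91, 3.92 and 3.21 in SSDS-GFP and at 3.77, 4.33 and 3.95 in Control. Acot2 was at 3.80, 4.97 and 5.31 FPKM in CSDS, at 4.40, 6.42 and 3.27 in SSDS-shACOT12, at 5.87, 5.83 and 4.62 in SSDS-GFP and at 4.24, 4.76 and 5.08 in Control. The groups overlapped for both genes. Of all runs of 50 bases, 19.2% in Acot1 and 27.7% in Acot2 occur in another gene, mainly in each other, so the split of reads between them is uncertain.

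Acot9 and Acot10 are 97.2% identical over their coding bases, and 15.2% of the runs of 50 bases in Acot9 are shared. Acot10 had 1, 1 and 0 counts in CSDS, 0, 1 and 1 in SSDS-shACOT12, 0, 4 and 0 in SSDS-GFP and 3, 1 and 0 in Control. At this depth no difference was detectable. The exact two-sided permutation test on CPM gave p = 0.5 for CSDS against Control, 1 for SSDS-shACOT12 against SSDS-GFP and 1 for SSDS-GFP against Control, where 3 libraries against 3 cannot go below 0.1.

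The summed FPKM of the 10 members was 275 ± 27.8 in CSDS, 343 ± 61.0 in SSDS-shACOT12, 308 ± 40.3 in SSDS-GFP and 236 ± 9.92 in Control (SD, n = 3 each). Acot7 took 46.4% ± 0.289 of this sum in CSDS, 50.8% ± 3.65 in SSDS-shACOT12, 46.3% ± 0.797 in SSDS-GFP and 43.2% ± 1.53 in Control. The share of Acot13 was 43.3% ± 1.64, 41.1% ± 2.90, 44.8% ± 1.60 and 45.0% ± 1.55 in the same order of groups. The other 8 genes made up 10.2% in CSDS, 8.06% in SSDS-shACOT12, 8.93% in SSDS-GFP and 11.7% in Control. These shares were not tested.

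**Figure D2:**
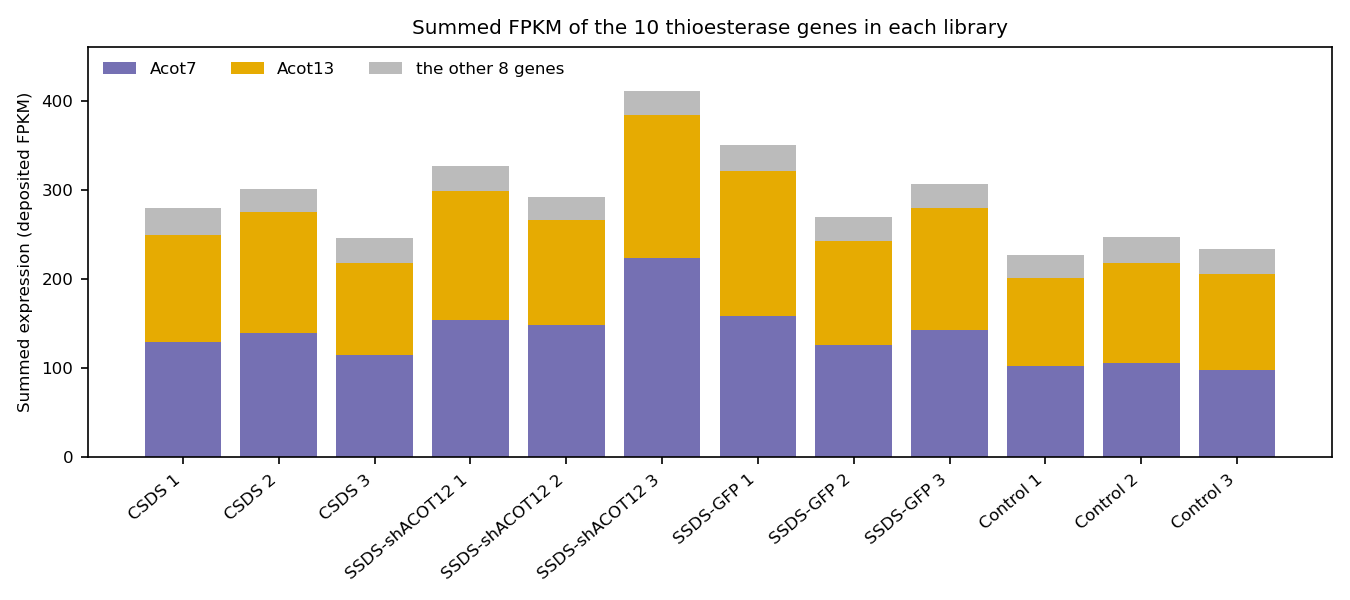
Summed deposited FPKM of the 10 thioesterase genes (y axis) in each library (x axis), stacked as Acot7, Acot13 and the other 8 genes. Acot7 and Acot13 fill most of every bar, and the 3 Control bars are the lowest on average, at 236 FPKM.

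Differences between groups were tested on the counts with edgeR's quasi-likelihood test over 16915 genes, and a member counts as called where its Benjamini-Hochberg adjusted p is under 0.05. Differences are log2 fold changes with their standard errors. CSDS, SSDS-GFP and SSDS-shACOT12 are each set against the same 3 Control libraries, so these comparisons are not independent.

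CSDS against Control asks what CSDS changes. Acot7 had a log2 fold change of 0.32 ± 0.16 (adjusted p = 0.867) and Acot4 of -0.49 ± 0.21 (adjusted p = 0.849). edgeR called 0 of 9 members, as it called 0% of all genes. The other tools, DESeq2 and limma-voom with quality weights, called 0 members, beside 0.0355% and 0.201% of genes. Of the 9, 1 (Acot4) had an unadjusted p under 0.05, as did 5.87% of all genes. In CPM, Acot7 lay above Control in 3 of 3 libraries without overlap, as 10.2% of genes did, and Acot4 below it, as 10.1% did.

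For the other 7 members the log2 fold changes in CSDS ran from -0.22 ± 0.18 (Acot11) to 0.22 ± 0.20 (Acot8), with Acot13 at 0.16 ± 0.16 and Acot12 at 0.02 ± 0.44. The 95% confidence interval for Acot12 ran from -0.93 to 0.96, so a change of up to about this size was not detectable at its counts. Of the 9 members, 5 were positive and 4 negative, with a median of 0.02, beside a median of 0.00 over all genes.

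SSDS-shACOT12 against SSDS-GFP addresses the effect of knocking ACOT12 down in the liver when both groups had SSDS. In CPM these 2 groups overlapped for every tested member. edgeR, DESeq2 and limma-voom each called 0 of 9 members and 0% of all genes. At an unadjusted p under 0.05 in edgeR stood 0 members and 4.53% of genes. Acot7 was at 0.31 ± 0.16 (adjusted p = 0.803, 95% interval -0.04 to 0.66). It was 0.09 without SSDS-shACOT12 3, and between 0.21 (without SSDS-GFP 2) and 0.41 (without SSDS-shACOT12 2) without any other single library. Groups that do not overlap occurred in 2.23% of genes (higher) and 2.58% (lower), and in 0 members. The count over all genes hung on 1 library: without SSDS-shACOT12 2, edgeR called 985 of 17292 genes (190 higher and 795 lower) and 0 members.

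Acot12 itself was at -0.39 ± 0.52 in SSDS-shACOT12 against SSDS-GFP (adjusted p = 0.851, 95% interval -1.51 to 0.73). Single libraries moved it. It was -0.79 when SSDS-shACOT12 1 was left out and -0.18 when SSDS-shACOT12 2 was, and -0.65 when SSDS-GFP 1 was left out and -0.11 when SSDS-GFP 2 was. Acot4 was at -0.20 ± 0.22, with -0.37 when SSDS-shACOT12 2 was left out, -0.07 when SSDS-shACOT12 3 was and -0.13 when SSDS-GFP 2 was. Acot2 was at -0.21 ± 0.22, with -0.50 when SSDS-shACOT12 2 was left out and -0.0013 when SSDS-shACOT12 3 was. Acot13 was at 0.03 ± 0.16. The other 4 tested members lay between -0.10 ± 0.14 (Acot1) and 0.14 ± 0.20 (Acot8). The median over the 9 members was 0.03, beside 0.01 over all genes.

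SSDS-GFP against Control compares mice that differ in SSDS and in the virus together, whose parts cannot be told apart. Acot4 had a log2 fold change of -0.78 ± 0.22 (adjusted p = 0.140), Acot7 of 0.49 ± 0.16 (adjusted p = 0.191) and Acot13 of 0.38 ± 0.16 (adjusted p = 0.285). edgeR called 0 of 9 members, beside 0.0946% of all genes. These 3 members had an unadjusted p under 0.05, as did 15.2% of all genes. DESeq2 called Acot4 (adjusted p = 0.0421) and 3.12% of all genes, and limma-voom with quality weights called Acot4, Acot7 and Acot13 and 13.2% of all genes.

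Acot7 and Acot13 lay above Control in SSDS-GFP without overlap, as did 12.5% of genes, and Acot4 and Acot12 lay below it, as did 11.4%. Acot12 was at -0.76 ± 0.47 (adjusted p = 0.460, range over the alternatives 0.0990 to 0.756), and its highest SSDS-GFP library (8 counts) and lowest Control library (9 counts) were 1 count apart. Without SSDS-GFP 1, Acot13 was at 0.24. The remaining members ran from -0.32 ± 0.18 (Acot11) to 0.26 ± 0.20 (Acot8). The median of the 9 members was -0.05 beside 0.01 over all genes.

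SSDS-shACOT12 against Control, added after the data were seen, gave the largest log2 fold changes of Acot7 and Acot4 among the 4 comparisons. Acot7 was at 0.79 ± 0.16 (adjusted p = 0.0531, 95% interval 0.44 to 1.15) and Acot4 at -0.98 ± 0.22 (adjusted p = 0.0532, 95% interval -1.45 to -0.50). Both missed the threshold narrowly in edgeR, which called 0 of 9 members beside 0.0828% of all genes. Acot13 was at 0.41 ± 0.16 (adjusted p = 0.146) and Acot12 at -1.15 ± 0.49 (adjusted p = 0.172). These 4 members had an unadjusted p under 0.05, as 24.2% of all genes did. They are also the 4 whose libraries did not overlap with Control, which held for 14% of genes higher and 11.6% lower. Acot12 was tested only because CSDS and Control libraries took it past the filter, so its place among the 4 adds no support.

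In SSDS-shACOT12 against Control the call hung on the method and on single libraries. Of 12 fits that each left out 1 library, 8 called 0 members, as the main fit did, and 4 called more. Without SSDS-shACOT12 3, edgeR called 0 members and 1 of 17261 genes. With only the 6 libraries compared, it called 0 members and 0 of 16264 genes. DESeq2 called Acot4 and Acot7, with adjusted p = 0.00344 and 0.000903, and 9.29% of all genes. By limma-voom Acot4, Acot7 and Acot13 were called, beside 24.7% of all genes. edgeR called Acot4 and Acot7 without SSDS-GFP 2 (2.98% of genes) or without SSDS-GFP 3 (2.59%), and Acot7 alone without SSDS-shACOT12 1 (1.74%). It called Acot4, Acot7, Acot8 and Acot13 without SSDS-shACOT12 2, where 24.5% of all genes were called. With no filter (5.31% of genes called), or with at least 50 counts in 3 libraries (2.65%), edgeR called Acot4 and Acot7. Without the 3 libraries that lay apart (SSDS-GFP 3, SSDS-shACOT12 1 and SSDS-shACOT12 3), which leaves 1 SSDS-shACOT12 library assumed to vary like the others, Acot7 was at 0.54, Acot4 at -0.69 and Acot13 at 0.14, and 0 members were called. Acot12 ran from -1.73 to -0.14 over its alternatives, with -0.14 on log2(FPKM + 1).

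**Figure D3:**
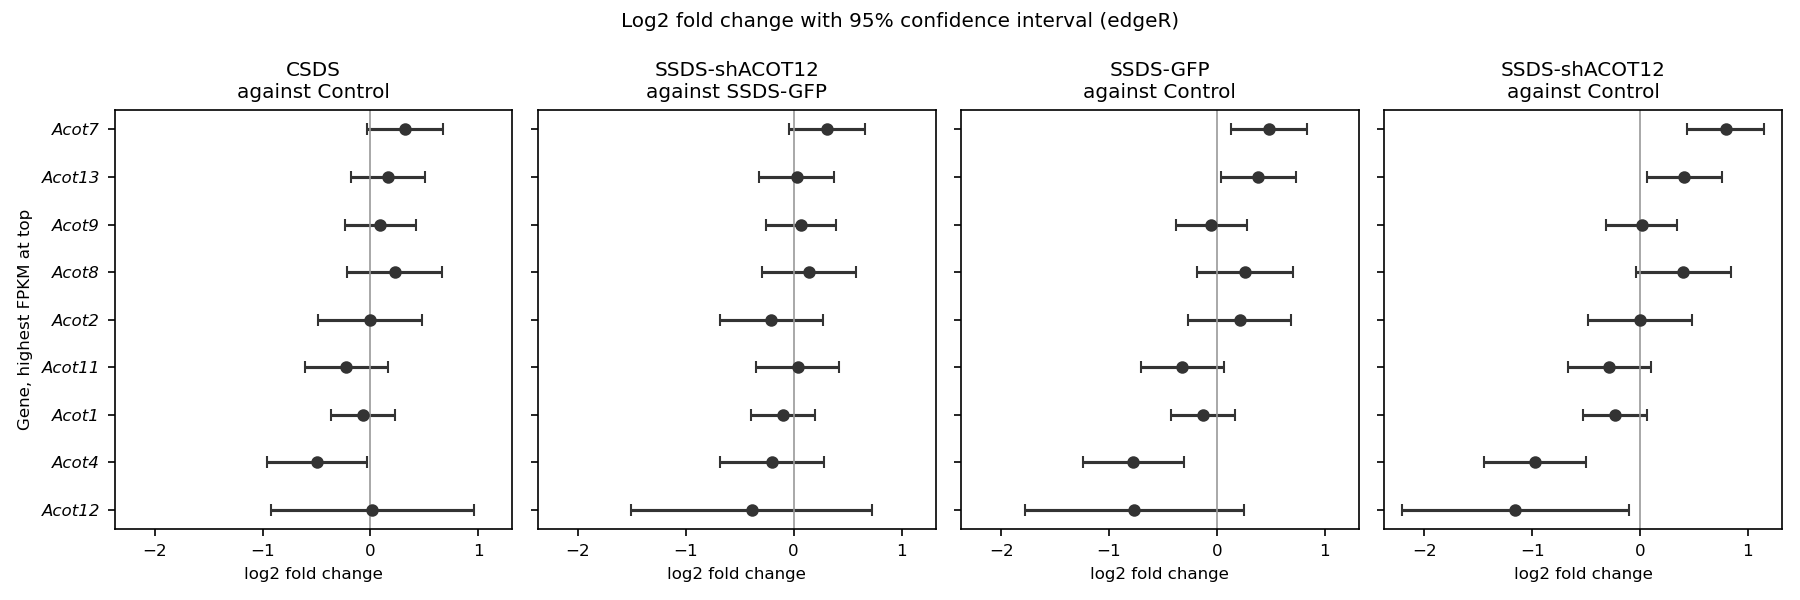
Log2 fold change (x axis) of the 9 tested thioesterase genes (y axis, ordered by mean FPKM) in the 4 comparisons. Bars are approximate 95% confidence intervals derived from the F statistic of the edgeR test. Acot7 lies right of 0 and Acot4 left of 0 in each panel, and the interval of Acot7 leaves 0 out in SSDS-GFP and in SSDS-shACOT12 against Control.

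The test of any difference among the 4 groups called 0 of 9 members, beside 0.0887% of all genes, with 2 members (Acot7 and Acot4) at an unadjusted p under 0.05 against 14.4% of genes. The adjusted p was 0.188 for both, 0.384 for Acot13 and 0.385 for Acot12. By DESeq2 both passed, at adjusted p = 0.00626 for Acot7 and 0.0121 for Acot4, with 4.46% of all genes called. Without SSDS-shACOT12 2 both passed in edgeR as well, at 0.0266 for Acot7 and 0.0306 for Acot4, with 12.6% of all genes called. By limma-voom Acot4, Acot7 and Acot13 passed, with 26.2% of all genes called, and with no filter Acot7 passed in edgeR, with 4.45%.

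Fold changes of all genes differed with gene length. Tested genes were split into 8 bins by length, and the bin of Acot7 (1479 to 2361 bases) had a median log2 fold change of 0.10 for CSDS, 0.20 for SSDS-shACOT12 and 0.17 for SSDS-GFP, each against Control. Acot7 was above 82.5%, 93.8% and 84.2% of that bin in the same comparisons. Acot13 is in the shortest bin, with medians of 0.14, 0.24 and 0.20, and was above 52.9%, 65.0% and 67.5% of it. Acot4 is in a bin with medians of -0.06, -0.11 and -0.08, and 4.54%, 2.74% and 3.27% of that bin were below it. The part of gene length in the results was not tested.

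**Figure D4:**
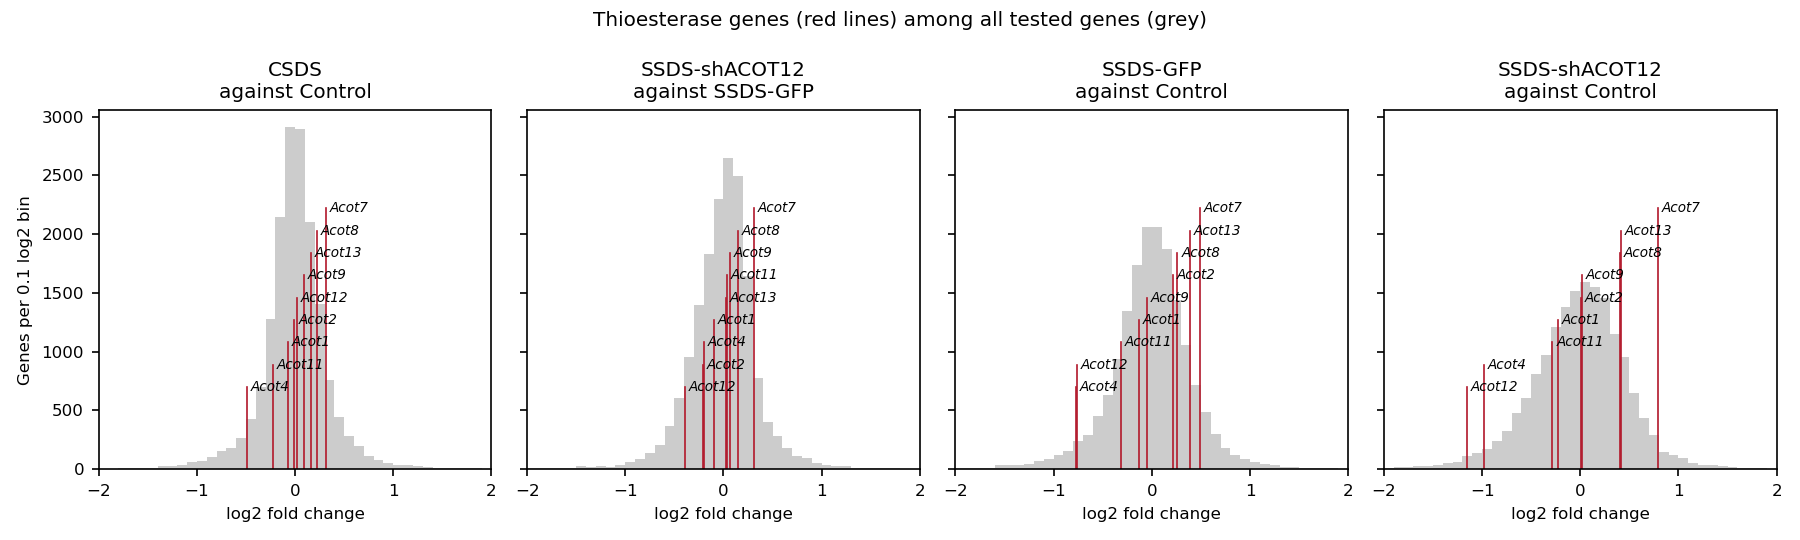
Histogram of the log2 fold changes of all tested genes (grey, bins of 0.1, y axis in genes; the x axis is cut at -2 and 2) in the 4 comparisons, with each thioesterase gene as a red line whose height only separates the labels. In the comparisons with Control, Acot7 is on the right and Acot4 on the left flank of the genes.

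Summed marker levels of several cell types differed between the groups. Inhibitory neuron genes summed to 449 to 548 FPKM in CSDS, 591 to 1261 in SSDS-shACOT12, 402 to 685 in SSDS-GFP and 343 to 422 in Control, with no marker at 0 in all libraries. Against Control, 9 of 10 were positive in CSDS (median log2 fold change 0.20), 10 of 10 in SSDS-shACOT12 (0.58) and 10 of 10 in SSDS-GFP (0.29). edgeR called 0 of them, with 3, 7 and 4 at an unadjusted p under 0.05, DESeq2 called 0, 5 and 0, and limma-voom 0, 6 and 3 in these comparisons. Over all genes the shares were 5.87%, 24.2% and 15.2% at an unadjusted p under 0.05, 0.0355%, 9.29% and 3.12% by DESeq2, and 0.201%, 24.7% and 13.2% by limma-voom. Excitatory neuron genes were positive for 5 of 10, 2 of 10 and 5 of 10 in these comparisons, with medians of -0.09, -0.30 and -0.04. edgeR called 0 of the excitatory genes. At an unadjusted p under 0.05 stood 1 higher and 2 lower in CSDS, 3 lower in SSDS-shACOT12 and 4 lower in SSDS-GFP. DESeq2 called 1 lower in SSDS-shACOT12. By limma-voom 1 was called higher and 2 lower in SSDS-shACOT12, and 4 lower in SSDS-GFP. The summed FPKM of the excitatory genes ran from 1864 to 2168 in CSDS, 1649 to 2384 in SSDS-shACOT12, 1552 to 2356 in SSDS-GFP and 1835 to 2260 in Control.

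Ventral hippocampus markers summed to 73.2 to 109 FPKM in CSDS, 41.5 to 238 in SSDS-shACOT12, 64.9 to 197 in SSDS-GFP and 29.1 to 66.9 in Control, with no marker at 0 in all libraries. Against Control, 9 of 10 were positive in CSDS (median 0.67), 8 of 10 in SSDS-shACOT12 (1.24) and 9 of 10 in SSDS-GFP (1.12). edgeR called 0 of them, and 1, 2 and 2 had an unadjusted p under 0.05, beside 5.87%, 24.2% and 15.2% of all genes. DESeq2 called 0, 1 and 0. By limma-voom 1 was called higher and 1 lower in SSDS-shACOT12, and 0 in CSDS and SSDS-GFP. Choroid plexus genes summed to 3.63 to 7.41 FPKM in CSDS, 5.03 to 10.9 in SSDS-shACOT12, 7.53 to 18.5 in SSDS-GFP and 11.8 to 419 in Control. CSDS and SSDS-shACOT12 lay below Control, and SSDS-GFP overlapped it. Most of the Control sum was Ttr alone, at 6.47 to 406 FPKM. Of the tested markers, 0 of 5 were positive in each comparison with Control, and none of the 10 listed markers was at 0 throughout. edgeR called 0 of the 5, with 1, 2 and 1 lower at an unadjusted p under 0.05 in CSDS, SSDS-shACOT12 and SSDS-GFP. DESeq2 called 1 lower in each, beside 0.0355%, 9.29% and 3.12% of all genes. By limma-voom 0, 1 and 0 were called lower, beside 0.201%, 24.7% and 13.2%.

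Red blood cell genes summed to 613 to 673 FPKM in CSDS, 314 to 564 in SSDS-shACOT12, 299 to 383 in SSDS-GFP and 273 to 320 in Control. Against Control, 6 of 6 tested markers were positive in CSDS (median 1.62), 4 of 6 in SSDS-shACOT12 (0.32) and 2 of 6 in SSDS-GFP (-0.29). In CSDS against Control edgeR called 0 of the 6, with 5 at an unadjusted p under 0.05, DESeq2 called 3 and limma-voom 4. Over all genes, 5.87% had an unadjusted p under 0.05, and DESeq2 called 0.0355% and limma-voom 0.201%. Ependymal genes were positive for 0 of 10 in CSDS (median -0.72), 8 of 10 in SSDS-shACOT12 (0.67) and 7 of 10 in SSDS-GFP (0.19), each against Control. Endothelial genes had medians of -0.01, -0.39 and -0.36 in the same comparisons. Of these 10, 1 higher and 5 lower in SSDS-shACOT12 and 4 lower in SSDS-GFP had an unadjusted p under 0.05 (24.2% and 15.2% of all genes). DESeq2 called 1 higher and 3 lower, and 2 lower (9.29% and 3.12%). limma-voom called 1 higher and 2 lower, and 3 lower (24.7% and 13.2%). In the same 3 comparisons, the medians of the astrocyte list were -0.11, -0.20 and -0.19. Those of the oligodendrocyte list were -0.09, -0.10 and 0.04, and those of the microglia list 0.03, 0.10 and 0.06. The part of these markers in the results for the thioesterase genes was not tested.

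The alpha/beta hydrolase genes lie in the order Acot2, Acot1, Acot4, Acot3, Acot5 and Acot6 on chromosome 12, so the fold changes of Acot4 can be set beside those of its neighbours. In SSDS-GFP against Control, Acot4 was at -0.78 ± 0.22, while Acot1, on one side, was at -0.13 ± 0.14 and Acot3, on the other, at 0.23 ± 0.23. Acot5 was at -0.09 ± 0.37 and Acot6 at 0.06 ± 0.17. In CSDS against Control, Acot4 was at -0.49 ± 0.21, beside -0.07 ± 0.14 for Acot1 and -0.08 ± 0.24 for Acot3. The antisense gene 4732463B04Rik was at -0.96 ± 0.52 in SSDS-GFP and -0.90 ± 0.52 in CSDS, each against Control. In SSDS-shACOT12 against Control, Acot4 was at -0.98 ± 0.22, Acot3 at -0.21 ± 0.24, Acot5 at -0.70 ± 0.37, Acot6 at -0.25 ± 0.17 and 4732463B04Rik at -1.25 ± 0.54. edgeR called none of these genes, and the differences between neighbours were not tested.

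The other genes that overlap a member were Snx21, which shares 246 exon bases with Acot8, Fam151a, which shares 1263 with Acot11 and had 0 to 1 counts, and 4833422C13Rik, which shares 149 with Acot12. Against Control, 4833422C13Rik was at -0.14 ± 0.22 in CSDS, -0.58 ± 0.23 in SSDS-shACOT12 and -0.47 ± 0.23 in SSDS-GFP, where Acot12 was at 0.02, -1.15 and -0.76. Snx21 was at 0.18 ± 0.19, 0.32 ± 0.19 and 0.16 ± 0.19 in the same comparisons. The part of these overlaps in the results was not tested. Acot11 and Acot12 are the START-domain members, and their coding sequences were 61.4% identical over the aligned bases.

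Genes whose libraries deviated from their group means most like a member were sought among 11263 genes, by Pearson's r over 12 libraries, as a description with no p. The values of 1 library share its depth and composition. For Acot7 the nearest were Prdx2, a cytosolic peroxiredoxin (r = 0.987), Pomp, a proteasome assembly factor (0.983), and Cox6b1, a subunit of cytochrome c oxidase (0.981). For Acot13 they were Elob, an elongin subunit (0.983), Ube2ql1 (0.976) and Tmem205 (0.975). For Acot4 they were Harbi1 (0.936), Nfatc2ip (0.931) and Aspa, the aspartoacylase of oligodendrocytes (0.921).

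The nearest gene to Acot9 was Mrps18a, a mitochondrial ribosomal protein (r = 0.980), followed by Cox5a (0.976) and Ctsd (0.971). Acot8 came closest to Snx17 (0.962), Acot2 to Camk2n1, an inhibitor of CaMKII (0.960), Acot1 to Ap4s1 (0.955) and Acot11 to Pck2, the mitochondrial phosphoenolpyruvate carboxykinase (0.906). Acot12 and Acot10 were too low for this comparison.

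The genes around the thioesterases were followed in 6 lists of acyl-CoA metabolism with 83 distinct tested genes, of which edgeR called 0 in each of the 4 comparisons. At an unadjusted p under 0.05 stood 2 of them in CSDS against Control, 0 in SSDS-shACOT12 against SSDS-GFP, 8 in SSDS-GFP against Control and 14 in SSDS-shACOT12 against Control. DESeq2 called 0, 0, 0 and 5 and limma-voom 0, 0, 4 and 19 in the same order. Over all genes the shares in that order were 5.87%, 4.53%, 15.2% and 24.2% at an unadjusted p under 0.05, 0.0355%, 0%, 3.12% and 9.29% by DESeq2, and 0.201%, 0%, 13.2% and 24.7% by limma-voom. Against thioesterases work the acyl-CoA synthetases, of which 17 of 20 were tested. Their median log2 fold change was 0.04 in CSDS against Control, 0.17 in SSDS-shACOT12 against SSDS-GFP and -0.06 in SSDS-GFP against Control, beside 0.00, 0.01 and 0.01 over all genes, and 11, 13 and 7 of the 17 were positive. Acsl1, a long-chain synthetase, averaged 4.00 FPKM in CSDS, 4.09 in SSDS-shACOT12, 3.67 in SSDS-GFP and 4.74 in Control, with a log2 fold change of -0.37 ± 0.13 in SSDS-GFP against Control (adjusted p = 0.209). Acsl3 averaged 34.4 FPKM in CSDS and 42.2 FPKM in Control (-0.30 ± 0.15, adjusted p = 0.860).

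Of the genes that make, carry or break down coenzyme A, 16 of 17 were tested. Dbi, the acyl-CoA binding protein that carries long-chain acyl-CoA in the cytosol, averaged 102 ± 10.9 FPKM in CSDS, 131 ± 28.1 in SSDS-shACOT12, 119 ± 16.7 in SSDS-GFP and 79.7 ± 14.3 in Control (SD, n = 3 each). Its log2 fold change was 0.34 ± 0.18 for CSDS (adjusted p = 0.867), 0.72 ± 0.19 for SSDS-shACOT12 (adjusted p = 0.0625) and 0.58 ± 0.18 for SSDS-GFP (adjusted p = 0.175), each against Control. Coasy, which makes coenzyme A in its last steps, was at 0.26 ± 0.15 in SSDS-shACOT12 against SSDS-GFP (adjusted p = 0.803). In SSDS-shACOT12 against Control it was at 0.50 ± 0.15 (adjusted p = 0.0905). Positive were 11, 10 and 10 of the 16 in the 3 comparisons given for the synthetases, with medians of 0.05, 0.03 and 0.04.

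Of the mitochondrial fatty acid oxidation genes, 20 of 21 were tested, with medians of -0.01 in CSDS against Control, 0.03 in SSDS-shACOT12 against SSDS-GFP and 0.05 in SSDS-GFP against Control. Cpt1a, the carnitine palmitoyltransferase that commits fatty acids to mitochondria, was at -0.32 ± 0.14 in SSDS-GFP against Control (adjusted p = 0.304), and Eci1, an enoyl-CoA isomerase, at 0.36 ± 0.17 (adjusted p = 0.327). Of the peroxisomal genes, 15 of 17 were tested, with medians of -0.03, 0.02 and 0.00 in the same comparisons. Abcd2, a peroxisomal importer of acyl-CoA, was at -0.42 ± 0.18 in SSDS-GFP against Control (adjusted p = 0.294), and Amacr at 0.32 ± 0.14 (adjusted p = 0.299). In SSDS-shACOT12 against Control, Abcd2 was at -0.63 ± 0.18 (adjusted p = 0.0780) and Pex5 at 0.40 ± 0.12 (adjusted p = 0.0913).

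PPAR alpha is a nuclear receptor that induces several thioesterase genes in liver. Of its targets, 14 of 20 were tested, with median log2 fold changes of -0.15 in CSDS against Control, 0.07 in SSDS-shACOT12 against SSDS-GFP and -0.29 in SSDS-GFP against Control. Angptl4, a secreted inhibitor of lipoprotein lipase, averaged 0.470 ± 0.0723 FPKM in CSDS and 1.49 ± 1.20 FPKM in Control (SD), so its Control libraries were uneven. Its log2 fold change was -1.67 ± 0.59 in CSDS against Control (adjusted p = 0.849). Ppara itself was low, at 0.131 ± 0.0403 FPKM in CSDS and 0.281 ± 0.116 FPKM in Control (SD). Its log2 fold change was -1.11 ± 0.50 (adjusted p = 0.849). Of the other thioesterases, 7 of 10 were tested, with medians of -0.08, -0.22 and 0.06 in the same order of comparisons. Acot3 was at -0.44 ± 0.24 in SSDS-shACOT12 against SSDS-GFP (adjusted p = 0.803), and Fasn, whose fatty acid synthase carries a thioesterase domain, at 0.28 ± 0.16 (adjusted p = 0.803).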

How the data were processed

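RNA of ventral hippocampus was measured in 12 libraries. Per the labels' protocols, 1 µg of total RNA went into each library (NEBNext Ultra RNA kit, which does not mark strand). The submitters' processing notes name HISAT2 2.0.5, featureCounts 1.5.0-p3, DESeq2 and mm10. The strand setting, annotation release and any filter are not given in the sources used here. Counts were deposited as raw whole numbers, and the FPKM deposited by the authors are scaled by gene length and by a library size 0.958 to 1.06 times the count total. Gene length is given in bases, another unit, per the file headers, and coordinates are those of the deposited files. The members and lists were chosen with earlier results of these data known.

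Counts were filtered with filterByExpr (minimum count 10, minimum total 15) and scaled by TMM. One quasi-likelihood model in edgeR 4.0.16 (R 4.3.3) held all 12 libraries with group as the only factor. P-values are two-sided and adjusted by Benjamini-Hochberg over 16915 genes, with a threshold of 0.05, and errors of log2 fold changes are SE. Alternatives used DESeq2 1.42.0, limma 3.58.1 (voom with quality weights, and limma-trend on log2(FPKM + 0.1) and log2(FPKM + 1)), other scalings and filters, a replicate block and each library left out. All members were named. For each member with at least 1 CPM, the 3 most similar genes with at least 5 CPM were named, and up to 2 genes with the smallest p were eligible in each list and comparison. The fits were tested on simulated data. Recovery in CSDS against Control was 5.97% of genes altered 1.5-fold, 53.7% of those altered 2-fold and 89.4% of those altered 4-fold. The same shares were 5.97%, 55.2% and 86.4% in SSDS-shACOT12 against SSDS-GFP, and 4.48%, 40.3% and 81.8% in SSDS-GFP against Control. False calls numbered 2, 3 and 3 in these comparisons. Most differences of 1.5-fold were thus missed there. The SE includes the spread between libraries as well as counting error.

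What a replicate number stands for is not stated in the labels. Between SSDS-shACOT12 and SSDS-GFP, same-numbered libraries deviated together from their group means (r = 0.196, 0.419 and 0.353). Each r exceeds 0.1, and a blocked fit was therefore made too. Across all groups 5 of 18 same-numbered and 11 of 36 differently numbered pairs exceeded 0.1.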

Additional observations from a re-analysis of the deposited data

How the results depend on the processing

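The number of members called stayed at 0 under every alternative run for CSDS against Control and for SSDS-shACOT12 against SSDS-GFP. Other genes were called under some of them. In CSDS against Control edgeR called 132 of 32777 genes with no filter and 84 of 16325 with only the 6 libraries compared. In SSDS-shACOT12 against SSDS-GFP it called 108 of 32777 with no filter and 985 of 17292 without SSDS-shACOT12 2. For SSDS-GFP against Control the number of members called was 1 by DESeq2 (3.12% of all genes) and 3 by limma-voom with quality weights (13.2%). For SSDS-shACOT12 against Control it was 2 by DESeq2 (9.29% of all genes), 3 by limma-voom (24.7%) and 2 with no filter (5.31%). It was 2 with at least 50 counts in 3 libraries (2.65%), and 0 to 4 when single libraries were left out (24.5% where 4 were called). For any difference among the 4 groups it was 2 by DESeq2 (4.46% of all genes), 3 by limma-voom (26.2%) and 1 with no filter (4.45%). It was 0 to 2 with single libraries left out (12.6% where 2 were called). The replicate block over all groups gave 0 members called in each of these comparisons, as the main fit did. So did the block among the 6 SSDS libraries alone for SSDS-shACOT12 against SSDS-GFP. Over all genes, the block over all groups lowered the number called from 16 to 9 in SSDS-GFP against Control. The number fell from 14 to 3 in SSDS-shACOT12 against Control and from 15 to 8 for any difference among the 4 groups.

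Small log2 fold changes changed sign. In CSDS against Control, Acot12 was -0.00348 by limma-trend with 0.1 added. Leaving out single libraries moved Acot2 between -0.10 and 0.12, Acot11 between -0.38 and 0.0058 and Acot12 between -0.18 and 0.28. In SSDS-shACOT12 against SSDS-GFP, limma-voom gave 0.15 for Acot12 and -0.015 for Acot13. Leaving out single libraries moved Acot8 between -0.024 and 0.30, Acot9 between -0.067 and 0.20, Acot11 between -0.087 and 0.17 and Acot13 between -0.10 and 0.16, and Acot9 between -0.13 and 0.013 in SSDS-GFP against Control. Without the 3 libraries that lay apart, chosen after seeing the data, Acot2 was 5.42e-05 in CSDS against Control, and in SSDS-shACOT12 against SSDS-GFP, Acot2 was 0.13, Acot4 0.054, Acot8 -0.20, Acot9 -0.25 and Acot13 -0.25. The causes were not tested. Acot7 stayed positive and Acot4 negative against Control in all alternatives. Acot12, with 3 to 14 counts per library, and Acot10, with 0 to 4, are limited by depth, and the filter of 50 counts leaves no value for Acot12.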
